A study of Mus musculus with 7 samples.

Results

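The 9 genes examined here are the transcripts most often used to recognise microglia, the resident macrophages of the brain: Cx3cr1, P2ry12, Tmem119, Csf1r, Aif1, Trem2, Tyrobp, Itgam and Cd68. They were chosen by name, for their use as microglial markers. All 9 were present among the 24346 gene symbols of the expression table and all 9 passed the filter on low values, which 12988 genes passed. Bulk RNA-seq had been performed on the whole cerebral cortex of male littermates on a C57BL/6J background at postnatal day 100. The mutant group was 4 CrT-/y mice (replicates 0 to 3), in which exons 5 to 7 of the X-linked creatine transporter gene Slc6a8 are deleted in every cell of the body, and the control group was 3 CrT+/y mice (replicates 1 to 3) with the intact gene. The labels give no treatment, and each animal gave 1 library. Levels are FPKM, fragments per transcript length and library size as the authors computed them.

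Microglia depend on the receptor Csf1r for survival, sample the tissue with processes steered by P2ry12 and Cx3cr1, and clear debris through phagocytic receptors. Cx3cr1 reads the neuronal chemokine fractalkine, P2ry12 reads nucleotides, and Tmem119 is a membrane protein of resting microglia. Trem2 binds lipids and lipoproteins and has no signalling tail of its own, so it signals through the adaptor Tyrobp (DAP12). Itgam is the integrin alpha chain CD11b, Aif1 encodes the actin-binding protein Iba1, and Cd68 is a protein of late endosomes and lysosomes. In homeostatic microglia Cx3cr1, P2ry12 and Tmem119 are high, whereas Trem2, Tyrobp and Cd68 are known to rise when microglia become phagocytic.

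Trem2 was the only member that passed the test between genotypes. Its level was 1.33-fold higher in CrT-/y cortex (9.24 ± 0.441 FPKM, SD, n = 4) than in CrT+/y cortex (6.92 ± 0.738 FPKM, SD, n = 3). Cx3cr1, P2ry12, Tmem119, Csf1r, Aif1, Itgam, Cd68 and Tyrobp did not pass, and their 95% intervals set the size of change that these 7 animals leave possible. Of the 9 members, 1 (11.1%) was called at an adjusted p under 0.1 by limma, beside 10.1% of all genes tested. In the higher direction that was 1 member, beside 2.90% of all genes tested, and 0 members were called lower, beside 7.25%. The groups did not overlap for 1 member, which was Trem2, higher in the mutants, whereas they did not overlap for 21.6% of all genes tested (6.57% higher and 15.0% lower in the mutants). The median log2 fold change was 0.06 over the members and -0.03 over all genes tested. In unadjusted limma tests, 2 members had a p under 0.05, namely Trem2 and Tyrobp, as had 25.0% of all genes tested.

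Slc6a8 itself was measured at 12.4, 14.9, 14.7 and 15.7 FPKM in the mutants against 32.3, 29.6 and 28.0 FPKM in the controls, so every library matched its genotype. The transcript stood at 48.1% of the control level (log2 fold change -1.05, SE 0.087, adjusted p = 0.0024 by limma). The relative depth of the libraries, read from the smallest steps of weakly expressed genes, spanned 1.00 in CrT+/y replicate 1 to 1.43 in CrT-/y replicate 2. Among all genes tested, 377 were called higher and 941 lower, and this balance depended on the scaling, with 528 against 555 under quantile normalization, 604 against 499 under upper quartile scaling, 490 against 527 under median centring and 575 against 663 with a transcript length correction. CrT+/y replicate 3 weighed heavily on every count, since 3733 genes were called without it, and without CrT-/y replicate 1 only 64 were called. CrT+/y replicate 2 stood apart in the choroid plexus gene Ttr, at 379 FPKM against 0.320 to 47.9 FPKM in the CrT-/y animals. Because whole tissue was sequenced, more or fewer microglia and more or less transcript per microglial cell cannot be told apart here.

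Trem2 lies on chromosome 17 between positions 48346401 and 48352276 of GRCm38.p6. Promoters of microglial genes are known to be bound by the myeloid factor PU.1, whose core motif is GAGGAA. RefSeq windows of 250 bases before the transcription start were held for 6 members, Trem2, Itgam, Cd68, Aif1, Cx3cr1 and P2ry12, and the core was searched in them on both strands. It was found in 4 of these 6 windows, beside 7639 of 32851 windows of the same length (23.3%). The longer form GAGGAAGT, which contains the core, was found in 0 of the 6 and in 2.44% of all windows. The windows of Trem2, the only member called, Itgam, the member with the most matches, and Cx3cr1, a member without a match and with a difference close to zero, are shown 5′ to 3′ on the strand of the gene with the core in capitals (TTCCTC where it is on the opposite strand). They span chr17:48346151-48346400 on the plus strand, chr7:128062390-128062639 on the plus strand and chr9:120068297-120068546 on the minus strand of GRCm38.p6.
Trem2: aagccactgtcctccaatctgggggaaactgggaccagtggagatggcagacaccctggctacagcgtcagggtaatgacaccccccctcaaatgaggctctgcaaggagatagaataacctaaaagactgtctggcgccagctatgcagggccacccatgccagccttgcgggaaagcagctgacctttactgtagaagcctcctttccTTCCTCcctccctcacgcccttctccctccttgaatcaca
Itgam: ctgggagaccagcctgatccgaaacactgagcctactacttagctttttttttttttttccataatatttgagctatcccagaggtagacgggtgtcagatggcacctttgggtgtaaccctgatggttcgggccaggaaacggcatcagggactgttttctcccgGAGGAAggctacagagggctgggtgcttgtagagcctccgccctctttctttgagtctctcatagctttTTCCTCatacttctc
Cx3cr1: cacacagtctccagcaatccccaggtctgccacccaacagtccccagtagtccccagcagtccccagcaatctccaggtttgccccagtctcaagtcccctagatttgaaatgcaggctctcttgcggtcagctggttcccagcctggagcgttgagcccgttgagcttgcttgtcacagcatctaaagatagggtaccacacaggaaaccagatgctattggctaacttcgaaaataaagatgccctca
The match of Trem2 began 40 bases before its start, and those of Itgam began 84 and 15 bases before. The window of Cx3cr1 held none. These matches are a description of letters, and the RNA data do not show whether the factor was bound there.

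Cx3cr1 was at 16.0, 17.2, 16.4 and 18.0 FPKM in mutant replicates 0 to 3 against 18.9, 16.6 and 15.6 FPKM in control replicates 1 to 3. The highest and the lowest values both came from CrT+/y animals, and the CrT-/y range lay inside the CrT+/y range. The difference was -0.01 on the log2 scale (95% interval -0.18 to 0.16, adjusted p = 0.954 by limma), with no stable direction, since its sign turned under each scaling alternative.

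P2ry12 was at 21.5, 19.1, 19.1 and 18.9 FPKM in the mutants against 26.3, 21.1 and 16.1 FPKM in the controls. The controls were widely spread, with a coefficient of variation of 24.1% against 6.18% in the mutants, and the mutant values lay between the control extremes. The log2 difference was -0.08 (95% interval -0.39 to 0.23, adjusted p = 0.758 by limma). It depended on single controls, at 0.09 (adjusted p = 0.690) when CrT+/y replicate 1 was left out and at -0.26 (adjusted p = 0.094), past the threshold, when CrT+/y replicate 3 was. The P2ry12 gene lies within Med12l, which is transcribed from the opposite strand, and how the counting treated strand is not given in the sources used here.

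Tmem119 was at 6.89, 8.31, 7.39 and 5.55 FPKM in the mutants against 6.48, 7.38 and 8.36 FPKM in the controls. The ranges overlapped almost entirely, and the lowest value was that of CrT-/y replicate 3. The log2 difference was -0.08 (95% interval -0.39 to 0.23, adjusted p = 0.748 by limma), and its sign turned once either CrT-/y replicate 3 (0.03) or CrT+/y replicate 3 (0.01) was left out. CrT+/y replicate 3 was therefore the lowest control for Cx3cr1 and P2ry12 and the highest for Tmem119.

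**Figure D1:**
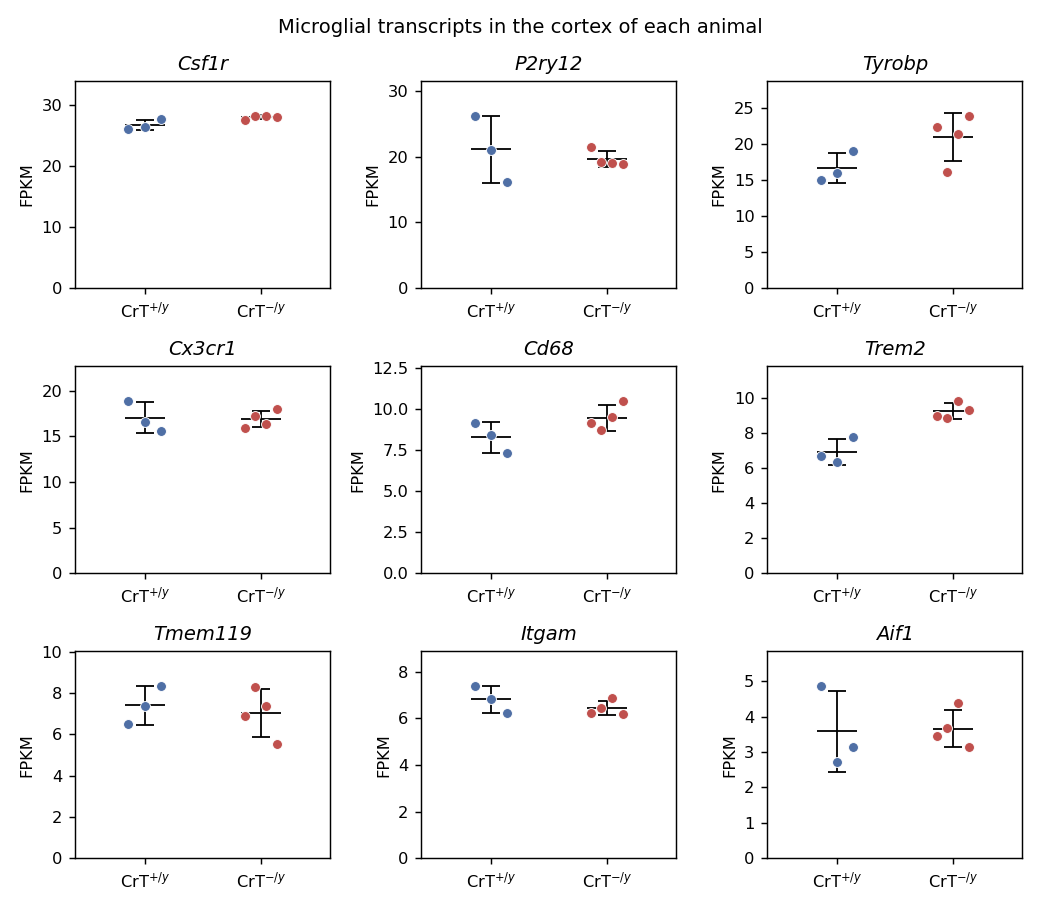
Each panel plots the FPKM of 1 gene on an axis from 0, with 1 point per animal for 3 CrT+/y (blue) and 4 CrT-/y (red) mice, a horizontal mark at the mean and bars of 1 SD. The 4 CrT-/y points of Trem2, from 8.85 to 9.84 FPKM, sit above its 3 CrT+/y points, from 6.32 to 7.74 FPKM, and in the other 8 panels the groups overlap.

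Csf1r, the receptor for colony stimulating factor 1 and interleukin 34, was the most abundant member and the least variable. It was at 27.4, 28.2, 28.2 and 28.0 FPKM in the mutants against 26.1, 26.3 and 27.7 FPKM in the controls. Among the controls only replicate 3 lay above the lowest mutant, so that the groups overlapped by a single pair of animals. The log2 difference was 0.07 (95% interval -0.04 to 0.18, adjusted p = 0.425 by limma, exact permutation p = 0.0571, two-sided), and the smallest p that 4 against 3 animals allow is 0.0286. The interval was the narrowest among the members.

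Itgam was at 6.25, 6.45, 6.87 and 6.21 FPKM in the mutants against 7.40, 6.83 and 6.23 FPKM in the controls. The groups overlapped, with a log2 difference of -0.08 (95% interval -0.26 to 0.10, adjusted p = 0.580 by limma). The annotation places the gene model Gm49368 over Itgam on the same strand, so their shared fragments cannot be told apart. Aif1, the weakest member, was at 3.45, 3.68, 4.38 and 3.14 FPKM in the mutants against 4.87, 2.73 and 3.14 FPKM in the controls. The highest and the lowest values were again controls, and the log2 difference of 0.06 had the widest interval of the 9, from -0.36 to 0.49 (adjusted p = 0.860 by limma). Its sign turned with the length correction and without CrT-/y replicate 2, CrT+/y replicate 2 or CrT+/y replicate 3.

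Trem2 was at 8.97, 8.85, 9.84 and 9.30 FPKM in mutant replicates 0 to 3 against 6.70, 6.32 and 7.74 FPKM in control replicates 1 to 3. All 4 mutants lay above all 3 controls, and the gap between the lowest mutant and the highest control separated CrT-/y replicate 1 from CrT+/y replicate 3. The log2 fold change was 0.42 (SE 0.083, 95% interval 0.23 to 0.60, adjusted p = 0.039 by limma, exact permutation p = 0.0286, two-sided, the smallest that these group sizes allow). Trem2 was called in 17 of 20 alternative settings. In the 13 of these other than leaving out single animals, its adjusted p by limma ran from 0.031 to 0.09997, the highest barely under the threshold. The call was lost when CrT-/y replicate 1 (log2 fold change 0.44, adjusted p = 0.114), CrT-/y replicate 2 (0.39, adjusted p = 0.112) or CrT+/y replicate 1 (0.40, adjusted p = 0.112) was left out. Without CrT+/y replicate 3 the log2 fold change was 0.50 (adjusted p = 0.0064), and without CrT+/y replicate 2, the choroid-rich library, it was 0.35.

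Tyrobp was at 22.3, 16.1, 21.4 and 23.9 FPKM in the mutants against 15.0, 16.0 and 19.1 FPKM in the controls. CrT-/y replicate 1 lay among the controls, and the other 3 mutants lay above every control. The log2 fold change was 0.32 (SE 0.134, 95% interval 0.02 to 0.62), which did not pass the threshold after adjustment over all genes (adjusted p = 0.181 by limma, exact permutation p = 0.114, two-sided). Without CrT+/y replicate 3 it was 0.42 and passed (adjusted p = 0.077). The log2 ratio of Trem2 to Tyrobp, a difference of 2 levels within a library, was -1.16 ± 0.22 (SD, n = 4) in CrT-/y and -1.25 ± 0.093 (SD, n = 3) in CrT+/y animals, and the groups overlapped.

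Cd68 was at 9.13, 8.70, 9.55 and 10.5 FPKM in the mutants against 9.17, 8.41 and 7.30 FPKM in the controls. The 2 highest values were mutants and the 2 lowest were controls, with the rest interleaved. The log2 difference was 0.19 (95% interval -0.02 to 0.41, adjusted p = 0.239 by limma), and Cd68 was called in 0 of 20 alternative settings, with positive values throughout.

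**Figure D2:**
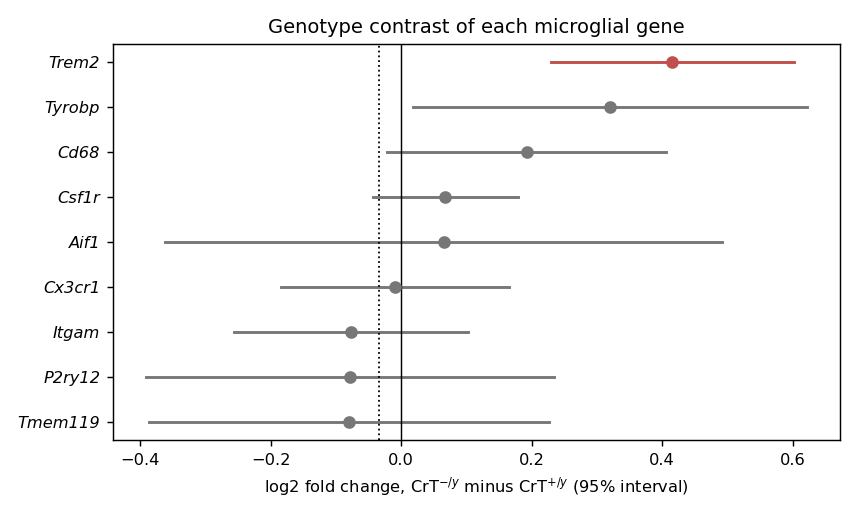
The log2 fold change of each gene (point) is plotted with its 95% interval (line) on the horizontal axis, CrT-/y minus CrT+/y, with a solid line at 0 and a dotted line at the median of all genes tested, -0.03. Trem2, in red, is the only gene called, at 0.42, and the intervals of 7 others include 0, whereas that of Tyrobp runs from 0.02 to 0.62 before adjustment.

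By mean level over the 7 animals the order was Csf1r (27.4 FPKM), P2ry12 (20.3), Tyrobp (19.1), Cx3cr1 (17.0), Cd68 (8.97), Trem2 (8.24), Tmem119 (7.20), Itgam (6.61) and Aif1 (3.63). Neighbours in this order overlapped in range over the animals except Cx3cr1 with Cd68 and Itgam with Aif1, where the first exceeded the second in all 7 animals. The summed level of the 9 genes ran from 116.7 to 123.6 FPKM in CrT-/y and from 111.2 to 120.9 FPKM in CrT+/y animals, and the groups overlapped.

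No animal stood high or low for all members. CrT+/y replicate 1 was the highest control for 5 members and the lowest for 3, and CrT+/y replicate 3 was the highest for 4 and the lowest for 4. Among the mutants, replicate 3 was the highest for 3 members and the lowest for 4. Over the 7 animals, Trem2 had a Pearson r of 0.908 with Csf1r and 0.767 with Tyrobp, while Tmem119 had -0.817 with Cd68 and P2ry12 had -0.733 with Csf1r. These correlations describe 7 points from the same libraries and pool the genotypes, and they carry no test.

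**Figure D3:**
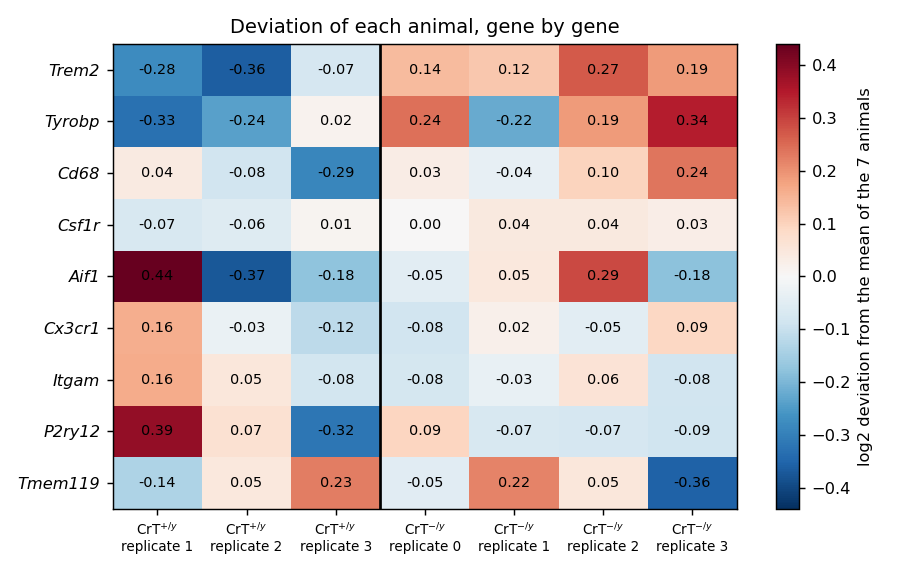
Each cell gives the log2 deviation of 1 animal from the mean of the 7 animals for 1 gene, red above and blue below, with CrT+/y animals left of the black line and CrT-/y animals right of it. Only the Trem2 row is negative in all 3 controls and positive in all 4 mutants, and the P2ry12 and Aif1 rows are highest in CrT+/y replicate 1 (0.39 and 0.44).

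The balance of the members within a library does not depend on a scaling factor between libraries. The log2 ratio of Trem2 to the mean of the other 8 genes ran from -0.35 to -0.27 in the CrT-/y animals and from -0.83 to -0.45 in the CrT+/y animals, so the groups did not overlap. That of Itgam ran from -0.92 to -0.85 in the mutants and from -0.80 to -0.63 in the controls, lower and also without overlap, and its denominator includes Trem2 and Tyrobp. For the other 7 members the groups overlapped. These ratios were formed after the levels were seen and carry no test.

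**Figure D4:**
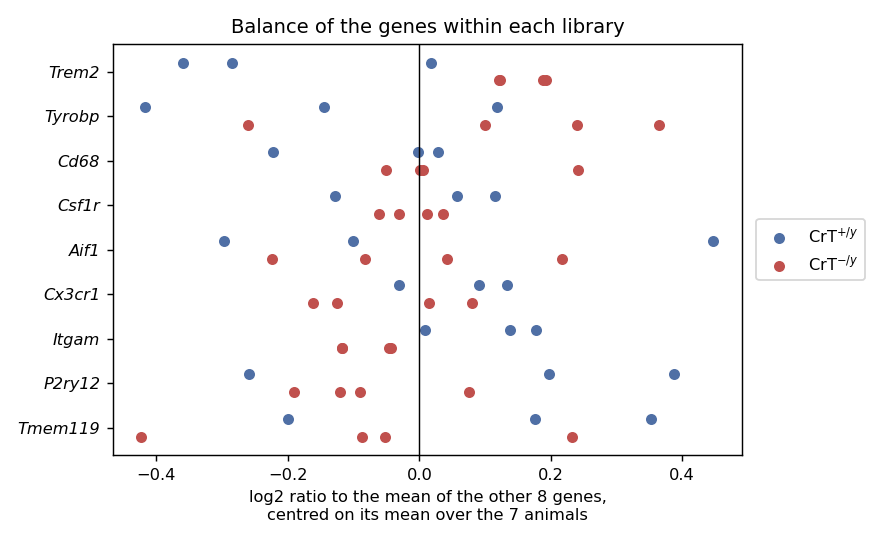
For each gene the horizontal axis gives the log2 ratio to the mean of the other 8 genes in the same library, centred on its mean over the 7 animals, with 1 point per animal (blue CrT+/y, red CrT-/y). The Trem2 points of the mutants lie to the right of all controls and the Itgam points to the left, and the other 7 rows overlap.

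Genes around these 9 were examined in 7 lists that together held 110 genes, of which 75 passed the filter. Of the 75, 2 were called higher and 6 lower (10.7%, beside 10.1% of all genes tested), with a median log2 fold change of -0.06. Leaving out single libraries moved this count of 8 in every case. It was lowest, at 0, when CrT-/y replicate 1 was left out and highest, at 15, for CrT+/y replicate 3. It was 2 when CrT-/y replicate 2, CrT-/y replicate 3 or CrT+/y replicate 1 was left out, 3 for CrT+/y replicate 2 and 4 for CrT-/y replicate 0.

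Among 10 ligands and cytokines that microglia read, 2 were called lower and 0 higher. Cx3cl1, the fractalkine that neurons present to Cx3cr1, was at 228, 216, 226 and 226 FPKM in the mutants against 268, 269 and 301 FPKM in the controls. The groups were fully apart, with a log2 fold change of -0.32 (SE 0.060, adjusted p = 0.035 by limma), and the call was lost without CrT-/y replicate 1 (adjusted p = 0.126) or 2 (adjusted p = 0.103). Cd47, which restrains phagocytosis through Sirpa, was at 54.8, 52.5, 52.6 and 55.7 FPKM against 61.7, 59.6 and 62.5 FPKM. It too was lower in every mutant (log2 fold change -0.18, SE 0.049, adjusted p = 0.069), but it was called in only 9 of 20 alternatives, and the call remained without CrT+/y replicate 2 or 3 and was lost without each other animal (adjusted p up to 0.193). The Csf1r ligands did not pass, with log2 differences of 0.10 for Csf1 (adjusted p = 0.547) and 0.01 for Il34 (adjusted p = 0.969), nor did Tgfb2 (0.20, adjusted p = 0.301).

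Of 20 other homeostatic genes, 17 were tested, 1 was called higher and 2 lower (17.6%, beside 10.1% of all genes tested). Their median was -0.07. Siglech, a sialic acid-binding lectin that also signals through Tyrobp, was at 4.81, 6.28, 5.91 and 6.53 FPKM in the mutants against 4.19, 3.76 and 4.90 FPKM in the controls. CrT-/y replicate 0 fell just under the highest control, and the log2 fold change was 0.45 (SE 0.126, adjusted p = 0.080 by limma). Selplg, the selectin ligand PSGL-1, was at 8.56, 8.32, 8.63 and 5.86 FPKM against 12.8, 11.3 and 9.76 FPKM. Every mutant was below every control (log2 fold change -0.53, SE 0.145, adjusted p = 0.075). Mertk, a receptor for apoptotic cells that astrocytes also carry, fell from 11.2 ± 1.12 (SD, n = 3) to 9.26 ± 0.604 FPKM (SD, n = 4), a log2 fold change of -0.27 (adjusted p = 0.094). The calls of Selplg and Mertk were lost without any single animal other than CrT+/y replicate 3, with adjusted p up to 0.216 and 0.245, and that of Siglech was lost without any animal other than CrT-/y replicate 0 or CrT+/y replicate 3, with adjusted p up to 0.197. Over the 20 alternatives, Mertk was called in 5, Selplg in 12 and Siglech in 13. Mertk lost its call under every scaling alternative. The other 14 tested genes did not pass, among them Sall1, a transcription factor of microglial identity (log2 difference 0.07, adjusted p = 0.764).

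Of 10 myeloid transcription factors, 8 were tested and limma called 0, with 0 at an unadjusted p under 0.05. Spi1, which encodes PU.1, had a log2 difference of 0.11 (adjusted p = 0.698). Maf (-0.12, adjusted p = 0.363) and Irf8 (0.19, adjusted p = 0.419) did not pass either.

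In the list of signalling through Tyrobp and its relative Fcer1g, 8 of 16 genes were tested and 1 was called, lower. That was 12.5% of the list's tested genes, beside 10.1% of all genes tested. Dok3, an adaptor known to restrain Tyrobp-coupled receptors, was at 1.82, 2.42, 2.67 and 1.66 FPKM in the mutants against 3.05, 3.78 and 4.37 FPKM in the controls. The groups did not overlap, and the log2 fold change was -0.78 (SE 0.185, adjusted p = 0.056 by limma), which lost its call without CrT-/y replicate 0, 1 or 3 or CrT+/y replicate 2 (adjusted p up to 0.127). Dok3 was called in 12 of the 19 alternatives that tested it. Inpp5d, the phosphatase SHIP1 (0.20, adjusted p = 0.210), Laptm5 (-0.07, adjusted p = 0.535) and Fcer1g itself (-0.06, adjusted p = 0.563) did not pass, and the kinase gene Syk, at a mean of 0.794 FPKM in CrT-/y and 0.816 FPKM in CrT+/y animals, was below the filter.

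Among 14 integrin partners and leukocyte actin genes, 8 were tested and limma called 0, with 1 at an unadjusted p under 0.05. Itgb2, the beta chain that pairs with Itgam, had a log2 difference of -0.04 (adjusted p = 0.850). Coro1a, an actin-binding protein of leukocytes that neurons also express, averaged 56.1 ± 2.94 FPKM (SD, n = 4) in the mutants against 45.5 ± 9.94 FPKM (SD, n = 3) in the controls (log2 difference 0.32, adjusted p = 0.144). The smallest p-values after it were those of Itgb5 (-0.16, adjusted p = 0.223) and Hcls1 (-0.23, adjusted p = 0.320).

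Of 20 genes that rise in disease-associated microglia, 16 were tested, and 1 was called, higher (6.25%, beside 10.1% of all genes tested). Lyz2, a lysozyme of myeloid cells, was at 7.48, 8.74, 8.72 and 10.2 FPKM in the mutants against 5.73, 6.96 and 7.08 FPKM in the controls. All mutants were above all controls, with a log2 fold change of 0.41 (SE 0.113, adjusted p = 0.079 by limma), which lost its call without any animal other than CrT-/y replicate 0 or CrT+/y replicate 3 (adjusted p up to 0.217). It was called in 13 of 20 alternatives. Lyz2 has a close copy in Lyz1, and only uniquely aligned reads were kept, so fragments alike in both may be missing from its level. The median of the list was -0.01, and Axl (0.05, adjusted p = 0.711), Lpl (0.06, adjusted p = 0.727) and Spp1 (0.10, adjusted p = 0.757), all known as genes of the Trem2-dependent state, did not pass. Cst7 and Clec7a, which define that state, were below the filter in both genotypes, at no more than 0.435 and 0.175 FPKM in any animal. Clec7a was at 0.119 to 0.175 FPKM in the mutants against 0.0350 to 0.103 FPKM in the controls. These ranges did not overlap, but they lie near the floor and limma did not test the gene. Those of Cst7 overlapped. The smallest p-values that missed were those of Fth1, the ferritin heavy chain (-0.18, adjusted p = 0.199), and Cd9 (-0.25, adjusted p = 0.230). Fth1, at 1682 to 2018 FPKM in the mutants against 2063 to 2111 FPKM, and the cathepsin gene Ctsz, at 21.0 to 22.7 against 23.1 to 24.2 FPKM (-0.11, adjusted p = 0.235), lay below all controls, and the sign of Fth1 turned under quantile normalization. The summed level of the list, most of it Fth1, was 2286 to 2603 FPKM in the mutants against 2654 to 2719 FPKM in the controls, lower without overlap. With Fth1 taken out of the sum, the groups overlapped.

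Of 20 inflammatory and phagocytic genes, 8 were tested, with 1 called, lower (12.5%, beside 10.1% of all genes tested). Ly86 (MD-1), the partner of the Toll-like receptor homologue Cd180, was at 9.39, 9.34, 7.17 and 9.69 FPKM in the mutants against 15.7, 12.5 and 12.4 FPKM in the controls. The groups were far apart, with a log2 fold change of -0.60 (SE 0.123, adjusted p = 0.041 by limma), and the call held in 18 of 20 alternatives, being lost without CrT-/y replicate 1 or CrT+/y replicate 1 (adjusted p up to 0.118). The summed level of the list, which includes Ly86, was 37.4 to 40.9 FPKM in the mutants against 41.5 to 44.7 FPKM in the controls. These sums did not overlap, but with Ly86 taken out the groups overlapped. Apart from this list and the disease-associated list, the sums of the microglial lists overlapped between genotypes. The cytokine genes were near the floor, with Il1b at 0.338 FPKM or less, Tnf at 0.0769 FPKM or less and Il6 at 0.103 FPKM or less in every animal. Cyba, a subunit of the phagocyte oxidase, was at 6.71 ± 0.292 FPKM (SD, n = 4) against 4.88 ± 1.95 FPKM (SD, n = 3), a log2 difference of 0.52 that did not pass (adjusted p = 0.161), and Fcgr3 did not pass either (-0.18, adjusted p = 0.190).

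**Figure D5:**
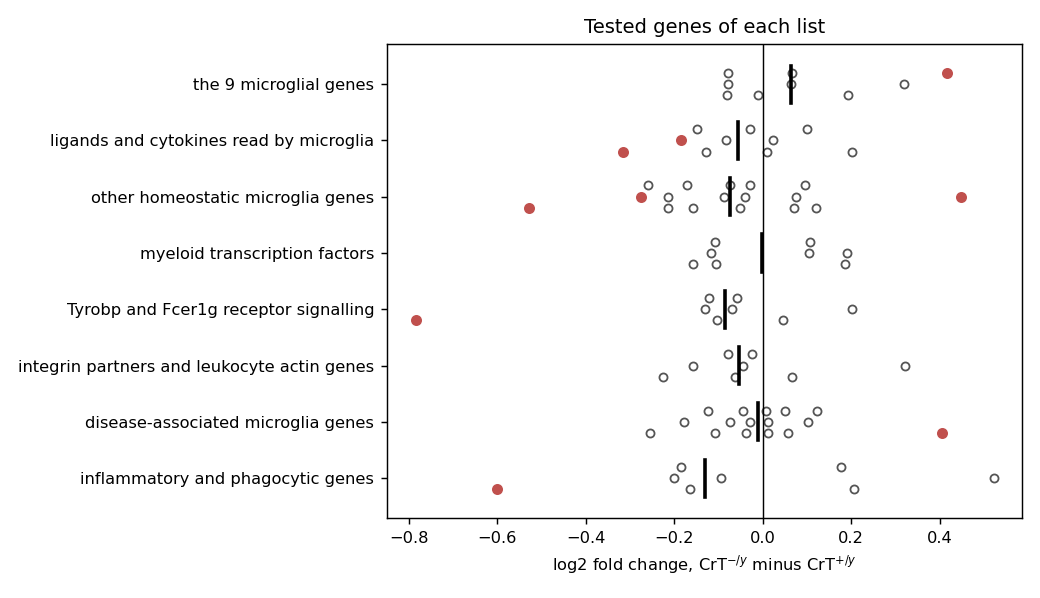
Each row is a list and each circle a tested gene at its log2 fold change, CrT-/y minus CrT+/y, filled red where it was called, with a black bar at the median of the list. Red circles lie to the right for Trem2, Siglech and Lyz2 and to the left for Cx3cl1, Cd47, Selplg, Mertk, Dok3 and Ly86, and the medians run from -0.13 to 0.06.

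Markers of other cells that share these transcripts were read in the same libraries. Border macrophages, which express Csf1r, Cx3cr1, Trem2 and Tyrobp as well, had 2 of 10 markers above the filter and 0 called by limma, with 0 at an unadjusted p under 0.05. Their summed level was 5.24 to 5.90 FPKM in CrT-/y and 4.10 to 6.93 FPKM in CrT+/y animals, with Mrc1 at most 2.00 FPKM. For monocytes, neutrophils and lymphocytes, which express Tyrobp and Itgam, 1 of 14 listed markers passed the filter and 0 were called (0 at an unadjusted p under 0.05). Their sum was 3.29 to 6.38 FPKM against 1.92 to 5.37 FPKM, 9 of the genes were at 0 in at least 1 animal, and Ccr2 of monocytes was at most 0.195 FPKM.

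Of the vascular markers, 3 of 8 were called (37.5%, beside 10.1% of all genes tested), all lower (beside 7.25%), with summed levels of 106.0 to 128.4 FPKM in CrT-/y and 126.3 to 155.0 FPKM in CrT+/y animals. They were Flt1 (log2 fold change -0.40, adjusted p = 0.042 by limma), Pecam1 (-0.31, adjusted p = 0.062) and Rgs5 (-0.40, adjusted p = 0.084). The signs in the list were mixed, with 2 of the 8 above zero, Pdgfrb of pericytes (0.03, adjusted p = 0.828) and the endothelial transporter gene Slco1a4, which was at 15.1 to 16.5 FPKM in every mutant against 13.5 to 14.7 FPKM in the controls without overlap but did not pass (0.15, adjusted p = 0.170). Slc22a6, 1 of 6 meningeal markers (16.7%, beside 2.90% of all genes tested), was called higher (0.49, adjusted p = 0.090). The meningeal list summed to 25.8 to 33.7 FPKM against 20.2 to 30.8 FPKM. Gad1, 1 of 6 neuron markers (16.7%, beside 2.90% of all genes tested), was called higher (0.24, adjusted p = 0.097). Of the neuron markers, 4 were below zero, namely Tbr1 (-0.21), Rbfox3 (-0.16), Snap25 (-0.12) and Slc17a7 (-0.03), none of them called, and the list had a median of -0.08 and summed to 2363 to 2660 against 2400 to 2774 FPKM. These 5 calls were each lost without at least 3 of the 7 animals, CrT-/y replicate 1 and CrT+/y replicate 1 among them each time, with adjusted p up to 0.239. Of 20 alternatives, Flt1 was called in 16, Pecam1 in 11, Rgs5 in 8 and Gad1 in 9, and Slc22a6 in 7 of 19.

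No marker was called by limma for red blood cells (4 tested), the choroid plexus and ependyma (6), astrocytes (6), oligodendrocytes (6) or their precursors (3), and 1 of these genes, Gpr17 of the precursors, had an unadjusted p under 0.05. Red blood cell markers summed to 21.1 to 56.3 FPKM in CrT-/y and 37.2 to 72.5 FPKM in CrT+/y animals. This sum holds uneven globin values. Hba-a2 was at 10.6 and 5.44 FPKM in CrT-/y replicates 2 and 3 and at most 0.00511 FPKM elsewhere. Hbb-bs was at most 0.00271 FPKM in CrT-/y replicate 1 and CrT+/y replicates 1 and 3, and at 4.09 to 14.9 FPKM elsewhere. The cause was not tested. Choroid plexus markers summed to 9.78 to 56.0 against 8.84 to 400.2 FPKM. Astrocyte markers summed to 815.7 to 889.7 against 846.0 to 1027 FPKM and oligodendrocyte markers to 853.7 to 1310 against 1186 to 1557 FPKM. The part of these marker levels in the Trem2 difference was not tested.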

How the data were processed

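RNA of the cerebral cortex was sequenced from 7 mice as paired-end reads. The authors aligned reads to mm10 with the Tuxedo protocol (Bowtie and Cuffnorm in the submitters' processing notes, versions not given in the sources used here), kept uniquely aligned reads on known exons and junctions with at most 2 mismatches, and deposited FPKM values per gene. The labels gave each animal's group and replicate number. Genes averaging 1 FPKM or more over the animals were tested on log2(FPKM + 0.1) with limma 3.58.1 in R 4.3.3 (moderation with a trend), on all 7 animals with genotype as the only term, and p-values were adjusted by Benjamini-Hochberg over the 12988 genes tested. Fold changes are on the log2(FPKM + 0.1) scale, which understates those of weak genes. Genes were called at an adjusted p under 0.1, the threshold of the study's methods. Exact permutation tests used all 35 splits of the animals and were two-sided. Scripts were tested on simulated data. The deposited values hold no read counts, the read totals that the study gives were not used here, and depth is described by relative values from the FPKM table. Littermates could not be paired from the labels. The limma p-values set the genotype difference against the spread between these animals within genotypes, moderated with a trend over the genes tested. Gene positions and windows came from RefSeq for GRCm38.p6. Transcript lengths (for 99.4% of the genes tested) and overlapping genes came from GENCODE.

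The members and lists were chosen with earlier results of these data known. Genes named were the members, Slc6a8, in each microglial list the 3 tested genes with the smallest p and every gene called, called genes of the other lists, and 5 genes whose pattern was most like the members', except where a gene is not reported here. Csf1, Il34, Sall1, Spi1, Fcer1g, Syk, Itgb2, Axl, Lpl, Spp1, Cst7, Clec7a, Il1b, Tnf, Il6, Mrc1, Ccr2, Ttr, Gpr17, Ctsz, Slco1a4, Pdgfrb, Tbr1, Rbfox3, Snap25, Slc17a7, Hba-a2 and Hbb-bs were added for their known roles or levels after their values were seen. The 20 alternatives changed the pseudocount, filter, scaling, moderation, weights, replicate block, length correction or left out 1 animal. Ly6g and Hbb-bt gave no value and were not analysed here.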

Additional observations from a re-analysis of the deposited data

Results flagged for a closer look

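In the 4 CrT-/y animals, 3 of 36 genes had an extreme value whose gap to the nearest animal was a larger share of the group's range than Dixon's 95% critical value for 4 samples. Chance alone gives this in about 1 of 20 groups. P2ry12 was highest in CrT-/y replicate 0, at 21.5 FPKM, with a gap of 0.913 of the range. Selplg was lowest in CrT-/y replicate 3, at 5.86 FPKM, with a gap of 0.888 of the range. Ly86 was lowest in CrT-/y replicate 2, at 7.17 FPKM, with a gap of 0.862 of the range. The 3 values came from 3 different animals, and the group of 3 CrT+/y animals was too small for this comparison.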

How the results depend on the processing

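Slc6a8 was called in all 20 alternatives, and Csf1r, Itgam and Cd68 stayed uncalled with an unchanged sign in all 20. Trem2 ranged from 0.35 to 0.50 when single animals were left out, and lost its call in 3 of those 7 fits. The sign of Cx3cr1 was positive under quantile normalization (0.034), upper quartile scaling (0.040), median centring (0.027) and length correction (0.045), and ranged from -0.070 to 0.068 without single animals. Aif1 was -0.0095 with length correction and -0.10 to 0.30 without single animals, and had no value under the filter at 5 FPKM. P2ry12 ranged from -0.26 to 0.091, Tmem119 from -0.17 to 0.027 and Tyrobp from 0.25 to 0.44 without single animals. In the 13 other alternatives Tyrobp ranged from 0.14 to 0.37 and was called in 0 of them. Fth1 was 0.069 under quantile normalization. The cause of these changes was not tested.

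All genes called, 1318 in the report's fit, numbered 730 (206 higher, 524 lower) without a filter. Genes called lower numbered 555 under quantile normalization, 499 under upper quartile scaling (604 higher), 527 under median centring and 625 without a trend. Those called higher numbered 575 with length correction and 602 with array weights. Without single animals, 64 to 3733 genes were called, 11 to 1340 higher and 53 to 2393 lower. Of the 75 genes in the 7 lists, 3 were called without a filter, 3 without a trend and 0 to 15 without single animals. Of the 9 members, 0 to 3 were called without single animals.

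The replicate numbers were shared by both genotypes, but same-numbered animals did not deviate together (r of -0.08, 0.05 and -0.05), so they share only a number. With the replicate block, which in effect leaves out CrT-/y replicate 0 as the animal without a partner, 576 genes were called (166 higher, 410 lower), 5 of them in the lists, with Cx3cr1 at 0.017 and Trem2 at 0.43 (adjusted p = 0.091). With block and length correction together, 344 genes were called (133 higher, 211 lower), 4 of them in the lists, with Cx3cr1 at 0.072 and Trem2 at 0.39, still under the threshold. Not every animal correlated best with its own number.

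The 4 against 3 animals limit the precision of every value, as the 95% intervals show.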

Other observations

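The mean of the 9 members' log2 deviations was 0.01 to 0.10 in the CrT-/y animals and 0.04, -0.11 and -0.09 in CrT+/y replicates 1, 2 and 3. The 5 genes whose levels over the 7 animals were most like it were Zfp746 (Pearson r 0.962), Ino80dos (0.961), Miat (0.960), Tvp23a (0.959) and Kctd18 (0.948), where the 99th percentile of r over all genes tested was 0.813. The animals share their libraries across all these genes, and r is given as a description of 7 points. None of the 5 was called by limma (adjusted p from 0.217 to 0.346).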
